A study of Mus musculus with 12 samples.

Results

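The genes described here encode the CSF-1 receptor, the receptor Met and 8 cytoplasmic proteins that bind Cbl proteins or act beside them, in mouse bone-marrow-derived macrophages labelled as knockouts of Cbl, Cbl-b or both. The 10 genes were chosen by name as kinases that Cbl proteins act on and as adaptors that bind Cbl: Csf1r, Met, Syk, Grb2, Crk, Crkl, Sh3kbp1, Cd2ap, Pik3r1 and Vav1. The rule uses no measured value. All 10 were among the 15555 genes of the count table, and all 10 passed the filter on low counts that left 12671 genes for testing.

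Cbl and Cbl-b are ubiquitin ligases that recognise activated tyrosine kinases and mark them for internalisation and breakdown. In macrophages the CSF-1 receptor is the growth and survival receptor of the lineage, and Cbl is recruited to it once the ligand CSF-1 has switched on its kinase. Met, the receptor for hepatocyte growth factor, is another kinase that Cbl ubiquitinates, and is best known from epithelial and muscle precursor cells. The adaptors link Cbl to its partners through small binding domains. Grb2, Crk and CrkL join receptors to downstream switches, CIN85 (Sh3kbp1) and CD2AP couple Cbl to the endocytic machinery, and p85α (Pik3r1) and Vav1 connect to lipid signalling and to Rac activation. Cbl proteins act largely on protein modification and stability, whereas the values below are mRNA levels. Receptor protein, phosphorylation and ubiquitination were not measured in these files.

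The study compared 3 libraries each of macrophages labelled Cbl-/-, Cbl-b-/-, double knockout (DKO) and wild type (WT). Marrow cells were grown in uncoated dishes with L-cell supernatant as the CSF-1 source, and the adherent cells were collected at day 9, per the labels' protocols. Ligand was thus present in every group. The labels do not give the alleles, strain, sex or number of animals. The protocol mentions an equimolar pool without saying what was pooled, so the p-values measure the spread between libraries, which may be technical.

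Total counts ranged from 21048103 to 43946503 per library. Cbl had 51.5 ± 2.34 CPM (counts scaled to library size with TMM factors) in Cbl-/-, 139.3 ± 3.04 in libraries labelled Cbl-b-/- and 37.6 ± 3.05 in libraries labelled DKO, against 140.2 ± 3.41 CPM in WT (SD, n = 3 each). Cblb had 68.5 ± 0.69, 52.8 ± 2.93 and 71.7 ± 3.23 CPM in those groups and 59.4 ± 3.51 CPM in WT (SD, n = 3 each). Cbl was lower in Cbl-/- and in DKO (edgeR adjusted p = 7.41e-11 and 2.44e-12). Its counts also differed between these groups, by -0.45 log2 in DKO against Cbl-/- (edgeR adjusted p = 5.09e-05). Cblb lay below WT in all 3 libraries labelled Cbl-b-/-, by -0.17 log2, which did not pass (adjusted p = 0.457), and it was higher than WT in the libraries labelled DKO, by 0.27 log2 (adjusted p = 0.0027). The counts of Cblb therefore do not bear out these labels, and below Cbl-b-/- and DKO stand for the libraries so labelled. Counts summed over all exons of a gene would miss an allele that removes the protein but not the message. The library DKO 3 stood apart, with a chi-square statistic per degree of freedom of 44.7 and 55.3 against its partners, where the other within-group pairs gave 3.93 to 12.3. Cbl-b-/- 3, the least deep library, stood apart on the third principal component.

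Of the 10 genes, Met changed the most. In Cbl-/- macrophages 2 of the 10 were higher than in WT, Met and Sh3kbp1, where 5.68% of all tested genes were higher, and 0 were lower, where 4.19% of all genes were. In libraries labelled Cbl-b-/- none of the 10 passed the test in edgeR, DESeq2 or limma voom, and 1, Met, had an unadjusted p under 0.05. Of all genes 0.395% were higher and 0.0947% lower in that comparison. In libraries labelled DKO, 3 of the 10 were higher (Met, Syk and Sh3kbp1), where 19.1% of all genes were, and 1 was lower (Csf1r), where 16.3% were. The remaining 6, Grb2, Crk, Crkl, Cd2ap, Pik3r1 and Vav1, did not pass. The count of 4 of 10 in DKO is thus close to the share of all genes called, 2423 higher and 2062 lower of 12671. The typical change was also no larger than that over all tested genes, which were not matched to the 10 for expression level. The median absolute log2 difference of the 10 genes was 0.148 in DKO, with 0.201 over all tested genes, and 0.0512 in Cbl-/-, with 0.115 over all. Without the library DKO 3, 6 of the 10 passed in DKO against WT, the additional genes being Crk and Cd2ap, and the number of all genes called was 4797, against 4485 with all libraries.

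**Figure D1:**
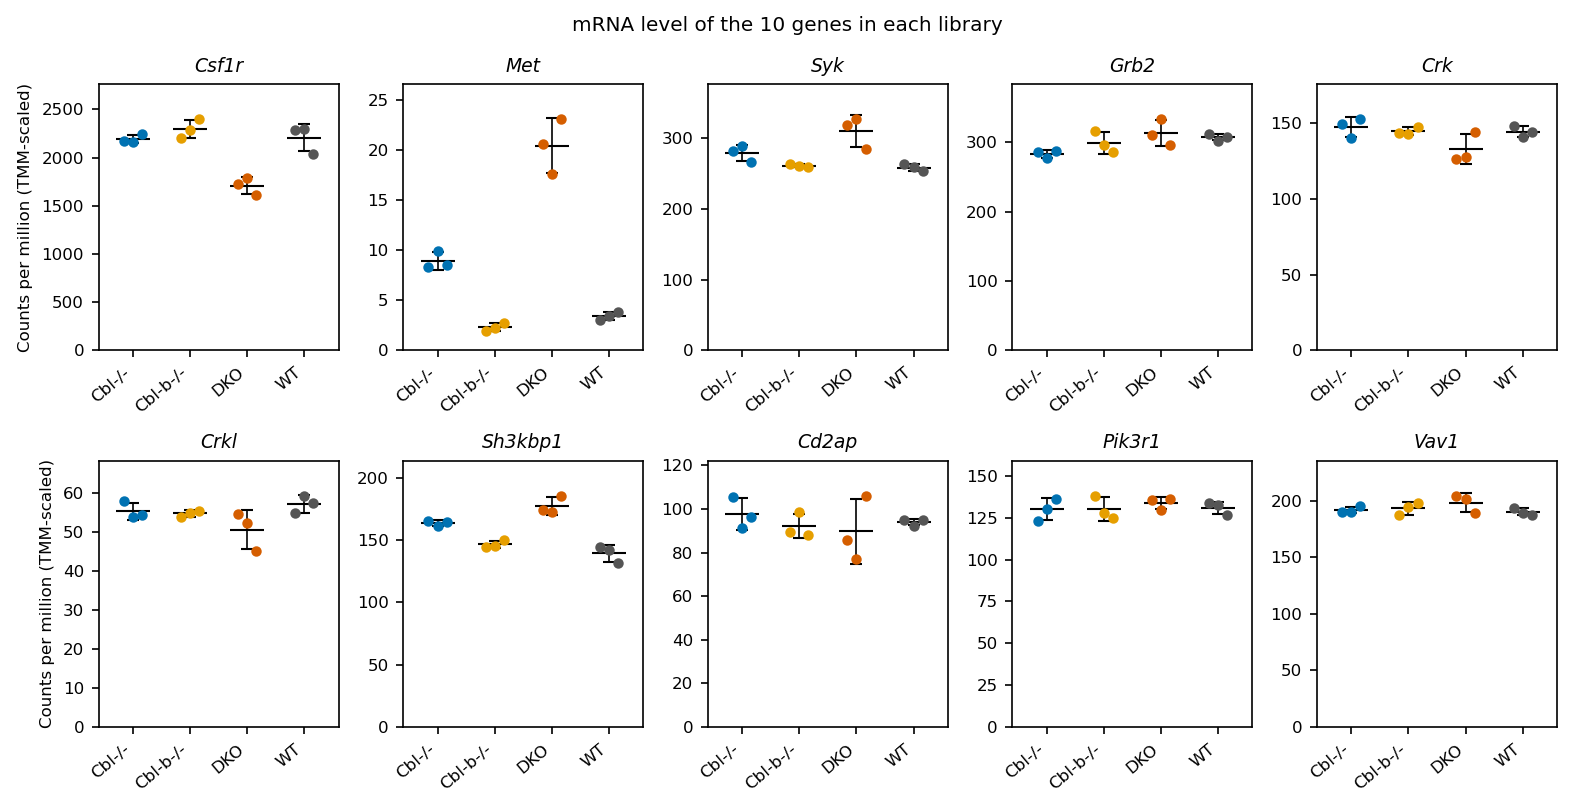
CPM of each of the 10 genes (y axis, linear, from 0, its own scale per gene) in the 3 libraries of Cbl-/-, Cbl-b-/-, DKO and WT (x axis), drawn as points in the order 1 to 3 with the mean and SD in black. Met is the gene whose level differs most between groups, with 17.65 to 23.13 CPM in DKO and 3.046 to 3.859 CPM in WT.

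**Figure D2:**
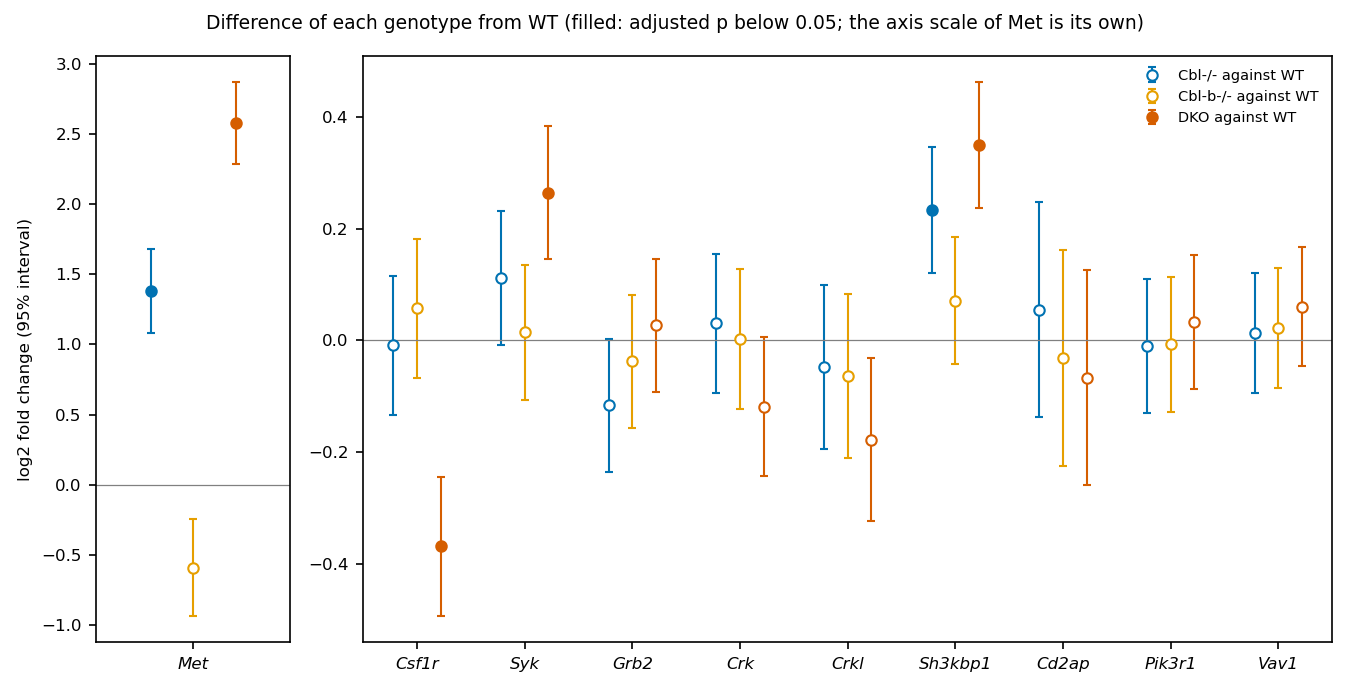
Log2 difference from WT (y axis) of each gene in Cbl-/-, Cbl-b-/- and DKO, with unadjusted 95% intervals. Filled points passed an adjusted p of 0.05, and Met is drawn on a scale of its own because its values reach 2.58 while the other 9 genes lie between -0.37 and 0.35.

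Between each other the 10 genes ranged from low to very high expression. Per kilobase of exon, Csf1r was among the highest genes, with 296 ± 15.7 RPKM in DKO and 382 ± 24.8 RPKM in WT (SD, n = 3 each), and its WT level lay at percentile 99.3 of the tested genes. Grb2 (105 RPKM in WT) and Vav1 (51.6 RPKM) followed, then Crk (30.5 RPKM), Syk (27.6 RPKM), Sh3kbp1 (13.8 RPKM), Pik3r1 (13 RPKM), Crkl (11.4 RPKM) and Cd2ap (5.93 RPKM). Met stood far below the rest, at 2.67 ± 0.357 RPKM in DKO and 0.450 ± 0.053 RPKM in WT, where it lay at percentile 14.7. In WT, Grb2 and Vav1 lay at percentiles 97 and 93.3, while Cd2ap, at percentile 52.1, was near the middle of the tested genes.

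Csf1r (ENSMUSG00000024621, chromosome 18, 61100598 to 61132149, plus strand, GRCm38) encodes the receptor through which the cultures were kept alive. Its mRNA was lower in the libraries labelled DKO than in every other group, and did not pass the test in either single knockout. The DKO libraries had 1728, 1789 and 1611 CPM, against 2283, 2295 and 2041 CPM in WT. All 3 DKO libraries lay below all 3 WT libraries, and DKO 3 was the lowest library of all 12. The log2 difference was -0.37 (SE 0.0587, 95% interval -0.49 to -0.24, adjusted p = 0.000128), which is 1.29-fold lower. Cbl-/- libraries had 2175, 2164 and 2240 CPM and libraries labelled Cbl-b-/- had 2205, 2285 and 2398 CPM, both within or close to the WT range. Against WT the log2 difference was -0.01 in Cbl-/- (95% interval -0.13 to 0.11, adjusted p = 0.959) and 0.06 in the libraries labelled Cbl-b-/- (95% interval -0.07 to 0.18, adjusted p = 0.940). Neither interval reached the value measured in DKO.

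Set against the single knockouts, Csf1r was again lower in DKO, by -0.36 log2 against Cbl-/- (adjusted p = 0.000221) and by -0.43 against the libraries labelled Cbl-b-/- (adjusted p = 3.47e-05). From low to high the group means ran DKO, Cbl-/-, WT and Cbl-b-/-, and no pair among the last 3 passed the test. The sum of both single-knockout effects was 0.05 log2, whereas DKO lay at -0.37, and the departure of -0.42 (SE 0.0829, adjusted p = 0.00247) passed the test of additivity in edgeR. All 10 genes were tested for it, and 2 departed, Csf1r and Met, where 15.7% of all tested genes did. The fall of Csf1r kept its call in each of the 15 alternatives tried for DKO against WT, with log2 values from -0.44 to -0.33 and adjusted p up to 0.00473. Hmgxb3 overlaps the 3' end of Csf1r on the other strand. It had 28.5 ± 3.15 CPM in DKO and 29.1 ± 2.22 CPM in WT (SD, n = 3 each), far fewer reads than Csf1r. The library kit keeps the strand, per the labels' protocols, and whether the counting used it is not stated there.

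Markers of other cell types moved in the same libraries. Over all tested genes, 19.1% were higher and 16.3% lower in DKO than in WT, and 5.68% higher and 4.19% lower in Cbl-/-. Summed over 5 measured granulocyte markers the level was 66.9 to 88.4 CPM in DKO, against 2.72 to 3.88 CPM in WT, with 5 of 5 higher. Summed over 7 monocyte markers it was 157.6 to 213.3 CPM in DKO, against 56.5 to 61.9 CPM in WT, with 6 of 7 higher. The 9 macrophage markers summed to 15320 to 18650 CPM in DKO and 18120 to 19970 CPM in WT, and of them 5 were lower in DKO, among them Adgre1, Mertk, C1qa and Mrc1, 1 was higher (Fcgr1) and 3 did not pass. Adgre1, the F4/80 antigen, was lower by -0.37 log2 (adjusted p = 6.43e-05). In Cbl-/- the granulocyte markers summed to 4.43 to 5.76 CPM with 2 of 5 higher than in WT, the monocyte markers to 82.8 to 93.3 CPM with 2 of 7 higher, and the macrophage markers to 15270 to 16290 CPM with 2 of 9 higher and 3 lower. Libraries labelled Cbl-b-/- had 77.8 to 86.7 CPM of the monocyte markers, with 1 of 7 higher (Vcan, 0.71 log2, edgeR adjusted p = 0.00183). Their granulocyte markers summed to 3.05 to 4.32 CPM and their macrophage markers to 18230 to 20650 CPM, with 0 of 5 and 0 of 9 called. Of all tested genes 0.395% were higher and 0.0947% lower there. Dendritic cell markers summed to 2.91 to 3.18 CPM in DKO and 1.04 to 1.18 CPM in WT, and lymphoid markers to no more than 0.62 CPM in any library. Camp, Mpo, Elane and Retnlg of the granulocyte list were not analysed here. In bulk RNA, fewer cells of a type and less RNA per cell cannot be told apart, and the part of these cells in the differences of Csf1r and the other members was not tested. Cd68 and Lyz2, macrophage markers of the list that did not pass in DKO, were high in every group. Cd68 had 1148 ± 112 CPM in DKO and 1268 ± 40.7 CPM in WT (SD, n = 3 each). Lyz2 had 14080 ± 1670 CPM in DKO and 15670 ± 815 CPM in WT (SD, n = 3 each). In Cbl-/- Lyz2 was called lower than in WT.

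Of the ligands of the CSF-1 receptor, Csf1 was higher in DKO, where the receptor's own mRNA was lower. The DKO libraries had 18.0, 17.9 and 16.5 CPM of Csf1, against 1.67, 3.03 and 3.18 CPM in WT, with no overlap. The log2 difference was 2.75 (SE 0.186, adjusted p = 1.16e-08), which is 6.75-fold. The single knockouts stayed near WT, at 2.88 ± 0.449 CPM in Cbl-/- and 3.01 ± 0.43 CPM in the libraries labelled Cbl-b-/-, with 2.62 ± 0.834 CPM in WT (SD, n = 3 each), and neither passed. Il34, the other ligand of the receptor, was too low to be tested, at 0.276 ± 0.0272 CPM in DKO and 0.033 ± 0.0286 CPM in WT. The medium supplied CSF-1 protein in every culture, which the mRNA of Csf1 does not measure.

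**Figure D3:**
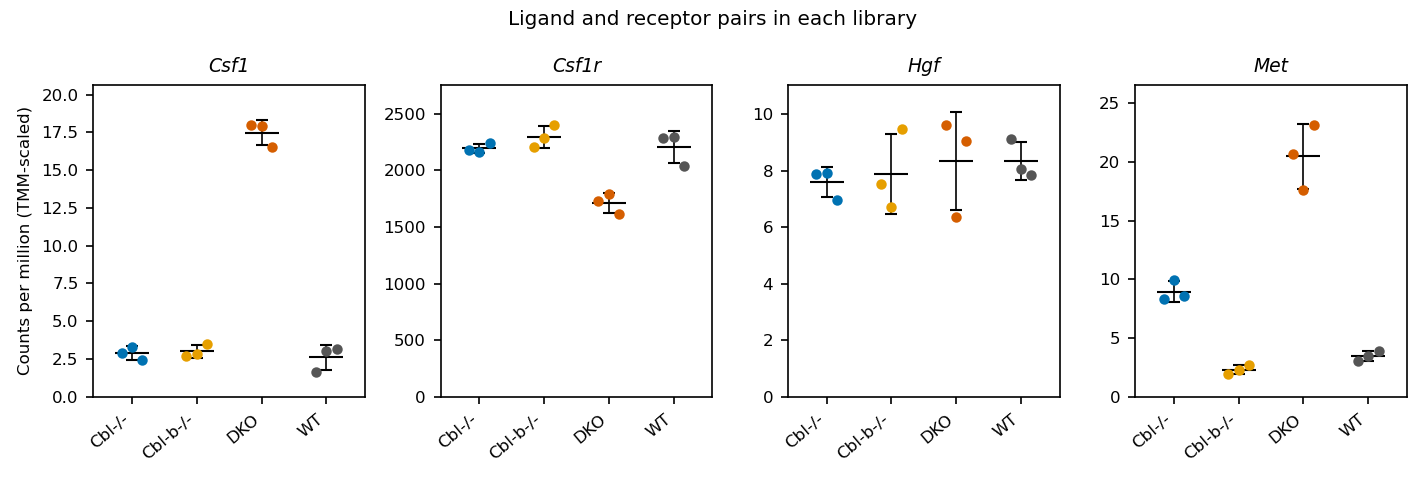
CPM (y axis, linear, from 0, its own scale per gene) of the ligand and receptor pairs Csf1 and Csf1r, and Hgf and Met, in the 3 libraries of each genotype (points, with mean and SD in black). In DKO Csf1 was higher and Csf1r lower than in WT, while Met was higher and Hgf overlapped WT.

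Of the 5 genes whose pattern over the 12 libraries was most like that of Csf1r among 10102 genes compared, Ski had a Pearson r of 0.988 and Igfbp4 one of 0.987. Mapk14, Mvb12b and Mafg followed, the last at 0.982. All 5 were lowest in DKO, for example Igfbp4, a binding protein of insulin-like growth factors, with 91.8 ± 9.41 CPM in DKO and 223 ± 32.8 CPM in WT (SD, n = 3 each). The 12 points fall into genotype groups that share libraries and depth, so these values describe the ranking only.

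Met (ENSMUSG00000009376, chromosome 6, 17463800 to 17573980, plus strand, GRCm38) was higher in Cbl-/- and higher still in DKO. The raw counts were 256, 241 and 306 in Cbl-/- and 741, 555 and 954 in DKO, against 128, 135 and 108 in WT, so the low level still rested on 108 reads or more in each of these libraries. On the scaled level Cbl-/- libraries had 8.33, 9.96 and 8.58 CPM and DKO libraries had 20.7, 17.7 and 23.1 CPM, against 3.05, 3.46 and 3.86 CPM in WT. The 3 groups did not overlap, with DKO highest, Cbl-/- between and WT lowest. The log2 difference from WT was 1.38 in Cbl-/- (SE 0.141, 95% interval 1.08 to 1.68, adjusted p = 4.33e-06) and 2.58 in DKO (SE 0.137, 95% interval 2.29 to 2.87, adjusted p = 6.85e-10). That is 2.60-fold in Cbl-/- and 5.97-fold in DKO.

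Libraries labelled Cbl-b-/- had 1.97, 2.25 and 2.71 CPM of Met, from 68, 70 and 59 reads, against 3.05, 3.46 and 3.86 CPM in WT. All 3 lay below all 3 WT libraries, but the log2 difference of -0.59 (SE 0.162) had an adjusted p of 0.189, and 0 of 15 alternatives passed, with adjusted p from 0.0791 to 0.537. Against Cbl-/-, the same libraries had less Met by -1.97 log2 (SE 0.152, adjusted p = 2.35e-07), and Met was the only 1 of the 10 genes to pass in that comparison, where 7.37% of all tested genes did.

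The difference of Met between DKO and WT did not equal the sum of its differences in the single knockouts. That sum was 0.79 log2 and DKO lay at 2.58, a departure of 1.79 (SE 0.205, adjusted p = 1.8e-05), or 3.46-fold more Met than the sum gives. Met also differed between DKO and Cbl-/- by 1.20 log2 (SE 0.127, adjusted p = 2.86e-06) and between DKO and the libraries labelled Cbl-b-/- by 3.17 log2 (SE 0.148, adjusted p = 1.89e-10). From low to high its order was Cbl-b-/-, WT, Cbl-/- and DKO, and each step passed the test except that between Cbl-b-/- and WT. Hgf, the ligand of Met, had 9.61, 6.36 and 9.04 CPM in DKO, against 9.11, 8.08 and 7.86 CPM in WT. These ranges overlapped, and the log2 difference was -0.000254 (95% interval -0.32 to 0.32, adjusted p = 0.999). The related receptor gene Mst1r was not analysed here.

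Because Met is not a typical macrophage gene, markers of stromal, endothelial and epithelial cells were read beside it. Whether the cells with these markers carry Met was not measured. The measured stromal and endothelial markers summed to 15.8 to 19.3 CPM in DKO, against 4.13 to 7.33 CPM in WT. Of 6 tested markers 5 were higher in DKO, where 19.1% of all tested genes were. Pdgfrb, among the 5, was near the floor, at 0.499 ± 0.0483 CPM in DKO and 0.0733 ± 0.0032 CPM in WT (SD, n = 3 each). In Cbl-/- the stromal and endothelial markers summed to 5.21 to 9.99 CPM, which overlapped WT, and 0 of 6 were called there. Of all tested genes 5.68% were higher and 4.19% lower in Cbl-/-. In the libraries labelled Cbl-b-/-, where Met lay below WT without passing, the stromal and endothelial markers summed to 2.35 to 3.08 CPM. Of them Col1a1, a collagen gene of fibroblasts, was lower there. Of the epithelial markers Cdh1, the E-cadherin gene, was measured, at 1.42 to 2.00 CPM in DKO and 1.25 to 1.83 CPM in WT, and at 3.87 to 4.88 CPM in Cbl-/-, where it was called higher. Epcam, Krt8, Krt18 and Krt19, and Col3a1 and Pdgfra of the stromal list, were not analysed here. The part of such cells in the level of Met was not tested.

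Upstream of the RefSeq start of Met (RefSeq, GRCm38.p6), the AP-1 letters TGANTCA were found once in the 250 bases searched, starting 54 bases before that start. The 30 bases around them are shown because Met was the member that differed most, with the matching letters in capitals (chr6:17463892-17463921, plus strand).
Met: tgttgcccggcTGAGTCAcgggccgggcag
AP-1 letters occurred on either strand in 6.75% of 32851 promoters of the same length. Among the 15 RefSeq promoters of 9 members, 1 held them, that of Met. GENCODE starts some Met transcripts upstream of this position, and AP-1 binding was not measured.

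The genes next to Met were examined after its values had been seen. Of the 10 annotated genes of the table within 1 Mb, 6 were tested, and 2 were higher in Cbl-/- and 4 in DKO than in WT, with 0 lower in either. Of all tested genes 5.68% were higher in Cbl-/- and 19.1% in DKO. Cav1, which encodes the membrane scaffold caveolin-1 and lies 122 kb from Met, had 87.4 ± 7.28 CPM in Cbl-/- and 138 ± 18 CPM in DKO, against 43.6 ± 4.7 CPM in WT (SD, n = 3 each). Its log2 differences were 1.01 in Cbl-/- (adjusted p = 1.48e-05) and 1.67 in DKO (adjusted p = 2.01e-08). In the libraries labelled Cbl-b-/- it had 58.1 ± 7.53 CPM, above WT where Met was below it, and did not pass (log2 0.42, adjusted p = 0.158). Tfec, a transcription factor gene of the macrophage lineage 565 kb away, was higher by 0.71 log2 in Cbl-/- (adjusted p = 0.000203) and 0.86 in DKO (adjusted p = 7.25e-06). Cav2, beyond Cav1 as seen from Met, had log2 differences of 0.29 and 0.21 that did not pass in either.

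**Figure D4:**
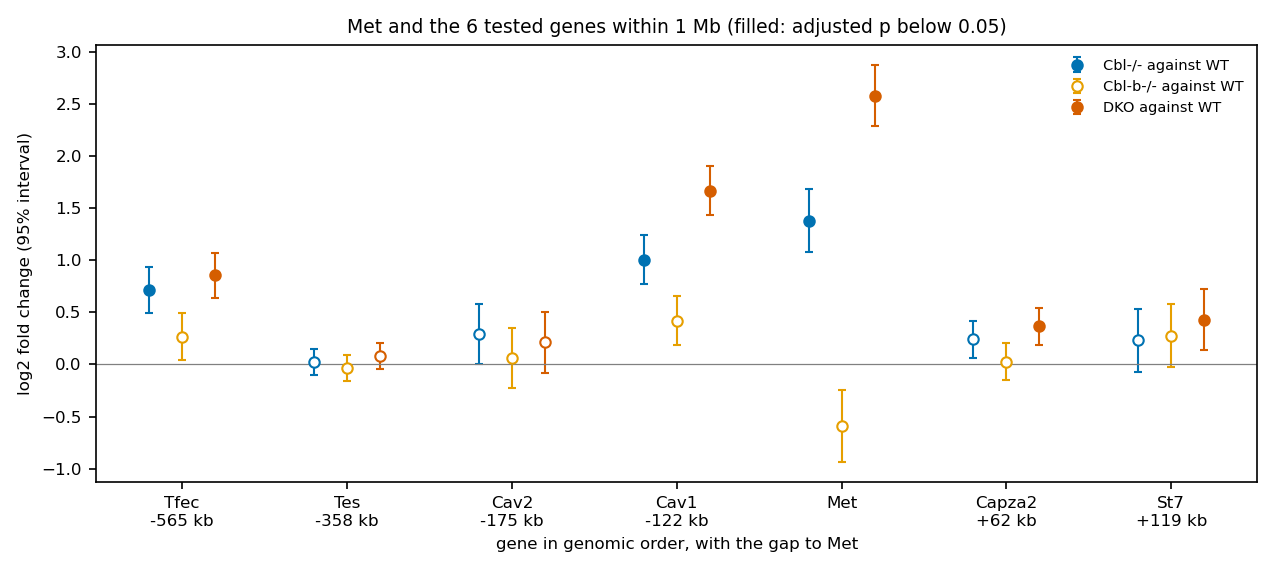
Log2 difference from WT (y axis, with unadjusted 95% intervals) of Met and the 6 tested genes within 1 Mb in genomic order (x axis, with the gap to Met in kb), in Cbl-/-, Cbl-b-/- and DKO. Filled points passed an adjusted p of 0.05: Tfec, Cav1 and Met in both Cbl-/- and DKO, and Capza2 and St7 in DKO.

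The 5 genes most like Met over the 12 libraries were Myof (Pearson r 0.973), Fam49a, Stt3a, Odc1 and Itprid2 (0.966). Each was highest in DKO and second in Cbl-/-, for example Odc1, the first enzyme of polyamine synthesis, with 115.5 ± 3.9 CPM in Cbl-/- and 171 ± 10.3 CPM in DKO, against 81.0 ± 4.88 CPM in WT (SD, n = 3 each). The 5 genes were picked for their likeness to Met, so the shared order follows from the choice and describes the ranking only. None of them lies on the chromosome of Met, and Stt3a lies on chromosome 9, as does Cbl.

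Syk (ENSMUSG00000021457, chromosome 13, 52583173 to 52648792, plus strand) encodes the kinase that reads phosphorylated ITAM motifs on Fc receptors, integrin adaptors and C-type lectins, and is a substrate of Cbl proteins. It had 319.5, 327.1 and 285.3 CPM in DKO, against 263.0, 258.9 and 253.9 CPM in WT. All DKO libraries lay above all WT libraries, DKO 3 being the nearest. The log2 difference was 0.26 (SE 0.0565, adjusted p = 0.00166), or 1.20-fold, and it was 0.25 against the libraries labelled Cbl-b-/- (adjusted p = 0.00271), which had 263.4, 261.1 and 259.0 CPM. Cbl-/- libraries had 282.0, 289.2 and 267.0 CPM, all above WT, with a log2 difference of 0.11 that did not pass (adjusted p = 0.275). That value passed where Cbl-/- and WT were fitted alone (adjusted p = 0.0439). The fitted spread between libraries was 4.23% in Cbl-/-, 11.7% in DKO and 5.39% in WT. DKO and Cbl-/- differed by 0.15 log2 for Syk, with an adjusted p of 0.0515, and this passed without DKO 3 (0.21, adjusted p = 0.00056) and with a replicate block (adjusted p = 0.0452).

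Around Syk, 17 further genes were tested: receptors and ITAM adaptors that signal through it, and signalling genes such as Plcg2, Card9 and Lat2. In Cbl-/-, 2 were higher and 4 lower than in WT, where 5.68% of all tested genes were higher and 4.19% lower. In DKO, 7 were higher and 4 lower, where 19.1% and 16.3% of all genes were, and in libraries labelled Cbl-b-/- 0 passed. Lat2 was among the higher and Card9 among the lower genes in DKO. The median log2 difference of the list was 0.02 in Cbl-/- and 0.01 in DKO. Clec4e, the C-type lectin Mincle, had 204 ± 4.3 CPM in Cbl-/- and 301 ± 74 CPM in DKO, against 86.9 ± 6.29 CPM in WT (SD, n = 3 each), and rose in both (1.23 and 1.79 log2, adjusted p = 0.000387 and 5e-06). Among Fcγ receptors the directions split in DKO: Fcgr1 was 0.82 log2 and Fcgr4 0.98 log2 higher, and Fcgr3 was -0.97 log2 lower (adjusted p = 1.09e-06, 6.53e-07 and 2.27e-08). Fcgr3 was also lower in Cbl-/- (-0.33, adjusted p = 0.0046), as was Trem2, a lipid-sensing receptor (-0.33, adjusted p = 0.00264). The ITAM chain gene Fcer1g was called lower in both Cbl-/- and DKO, and Tyrobp, which encodes DAP12, in Cbl-/-.

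Grb2 (ENSMUSG00000059923, chromosome 11) encodes the adaptor that brings Sos, and with it Ras activation, to activated receptors, and that binds Cbl through its SH3 domains. It had 310.2, 333.5 and 295.9 CPM in DKO, against 311.7, 302.5 and 308.3 CPM in WT, and these ranges overlapped (log2 0.03, 95% interval -0.09 to 0.14, adjusted p = 0.754). In Cbl-/- it had 286.2, 277.0 and 287.5 CPM, all below WT, with a log2 difference of -0.12 that did not pass (95% interval -0.24 to 0.00215, adjusted p = 0.241). Fitted on Cbl-/- and WT alone, Grb2 passed (-0.12, adjusted p = 0.0244). Grb2 supplied 96.4 ± 0.0876% of the summed RPKM of Grb2, Grap and Grap2 in DKO and 97.8 ± 0.408% in WT (SD, n = 3 each). Of its minor relatives, Grap2, known from T cells, was higher in Cbl-/- (0.94 log2, adjusted p = 0.000261) and in DKO (0.84, adjusted p = 0.000209), and Grap was higher in DKO (0.73, adjusted p = 0.00368).

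Crk (ENSMUSG00000017776, chromosome 11) and Crkl (ENSMUSG00000006134, chromosome 16) encode paired adaptors whose SH2 domains bind phosphorylated Cbl and whose SH3 domains bind exchange factors for Rap1 and Rac. Crkl had 54.6, 52.4 and 45.1 CPM in DKO, against 54.9, 59.4 and 57.6 CPM in WT. All 3 DKO libraries lay below WT, yet the log2 difference of -0.18 (SE 0.0689) had an adjusted p of 0.0547, and 5 of 15 alternatives passed. Crk had 126.6, 127.8 and 144.3 CPM in DKO, against 148.1, 140.9 and 144.0 CPM in WT. Here DKO 3 lay within the WT range and the other 2 below it, and the log2 difference of -0.12 (adjusted p = 0.131) became -0.18 without DKO 3 (adjusted p = 0.00405) and -0.19 with total counts in place of TMM factors (adjusted p = 0.0159). In Cbl-/- and in libraries labelled Cbl-b-/- both genes had log2 differences between -0.06 and 0.03 that did not pass. Per kilobase Crk made up 73.6 ± 3.29% of the pair in DKO and 72.8 ± 1.27% in WT (SD, n = 3 each). Of the members, Crkl shares its chromosome with Cblb, 34.54 Mb away.

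Sh3kbp1 (ENSMUSG00000040990, chromosome X, 159627272 to 159978069, plus strand) encodes CIN85, which bridges phosphorylated Cbl to endophilins at endocytic sites, and it was the second member higher in Cbl-/-. It had 165.6, 161.3 and 165.0 CPM in Cbl-/- and 174.3, 172.8 and 185.8 CPM in DKO, against 144.3, 142.4 and 131.7 CPM in WT. Neither group overlapped WT, and DKO lay above Cbl-/- in every library. The log2 difference from WT was 0.23 in Cbl-/- (SE 0.0533, adjusted p = 0.00902) and 0.35 in DKO (SE 0.0532, adjusted p = 8.3e-05), that is 1.18-fold and 1.27-fold. The call in Cbl-/- was lost without WT 3, the lowest WT library (0.19, adjusted p = 0.0524). Libraries labelled Cbl-b-/- had 144.6, 145.1 and 150.1 CPM, just above WT, with a log2 difference of 0.07 (adjusted p = 0.874), and DKO exceeded them by 0.28 (adjusted p = 0.00073). DKO and Cbl-/- differed by 0.12 log2, which did not pass (adjusted p = 0.115), and the departure from the sum of both single effects was 0.04 (95% interval -0.12 to 0.20, adjusted p = 0.753).

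Its relative Cd2ap (ENSMUSG00000061665, chromosome 17) encodes a protein of the same family with the same kind of SH3 domains. Cd2ap had 85.9, 77.2 and 106.1 CPM in DKO, against 94.96, 92.37 and 94.98 CPM in WT. DKO 3 lay above every WT library and the other 2 below, and no difference was called (log2 -0.07, 95% interval -0.26 to 0.13, adjusted p = 0.607), and without DKO 3 Cd2ap was -0.20 lower (adjusted p = 0.0162). Sh3kbp1 took a share of the pair's RPKM of 72.5 ± 1.27% in Cbl-/- and 75.8 ± 2.28% in DKO, against 69.9 ± 1.21% in WT (SD, n = 3 each). The lowest share in either group, 71.1% in Cbl-/- and 73.3% in DKO, was above the highest in WT, 70.8%.

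Pik3r1 (ENSMUSG00000041417, chromosome 13) encodes the p85α regulatory subunit of class I PI3-kinase, which binds Cbl and activated receptors. Its highest and lowest group means differed 1.03-fold, the smallest ratio among the 10 genes. It had 135.7, 129.9 and 136.4 CPM in DKO, against 133.7, 132.5 and 126.8 CPM in WT, which overlapped. Its log2 difference from WT was -0.01 in Cbl-/- (95% interval -0.13 to 0.11), -0.01 in libraries labelled Cbl-b-/- (-0.13 to 0.11) and 0.03 in DKO (-0.09 to 0.15), with adjusted p of 0.947, 0.992 and 0.697. Around it, Pik3r5, which encodes the p101 subunit that couples PI3-kinase γ to G proteins, held the largest share of regulatory-subunit RPKM, 67.8 ± 2.05% in DKO and 61.3 ± 2.18% in WT (SD, n = 3 each), and rose in DKO (0.35 log2, adjusted p = 0.000852). Pik3r2, the p85β gene, was lower in DKO (-0.38, adjusted p = 0.00832). Pik3cg, the catalytic partner of p101, was lower (-0.47, adjusted p = 7.87e-06), and Pik3cb was higher (0.43, adjusted p = 5.27e-05).

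Vav1 (ENSMUSG00000034116, chromosome 17, 57279100 to 57328031, plus strand) encodes the blood-cell exchange factor for Rac that Cbl proteins bind. It had 204.8, 201.7 and 189.3 CPM in DKO, against 193.9, 189.7 and 187.7 CPM in WT, which overlapped. None of its differences from WT passed, with log2 values of 0.01 in Cbl-/-, 0.02 in libraries labelled Cbl-b-/- and 0.06 in DKO, and an upper 95% bound of 0.17 in DKO. Vav1 supplied 80.5 ± 1.27% of the summed Vav1, Vav2 and Vav3 RPKM in DKO and 80.4 ± 0.532% in WT (SD, n = 3 each). The broadly expressed Vav2 was higher in Cbl-/- (0.29 log2, adjusted p = 0.00913) and in DKO (0.30, adjusted p = 0.00198), and Vav3 did not pass in any comparison with WT.

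The sequences 250 bases upstream of the RefSeq starts (GRCm38.p6) of Sh3kbp1 and Vav1 are shown to set a member that rose in Cbl-/- and DKO beside a member that did not pass in either, with PU.1 core letters (GAGGAA on either strand) in capitals. Sh3kbp1 lies at chrX:159627022-159627271 and Vav1 at chr17:57278850-57279099, both on the plus strand.
Sh3kbp1: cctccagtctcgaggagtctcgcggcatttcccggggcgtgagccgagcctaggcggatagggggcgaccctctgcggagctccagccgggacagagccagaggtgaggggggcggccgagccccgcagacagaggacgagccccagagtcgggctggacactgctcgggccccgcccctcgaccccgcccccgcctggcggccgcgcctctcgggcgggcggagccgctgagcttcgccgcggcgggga
Vav1: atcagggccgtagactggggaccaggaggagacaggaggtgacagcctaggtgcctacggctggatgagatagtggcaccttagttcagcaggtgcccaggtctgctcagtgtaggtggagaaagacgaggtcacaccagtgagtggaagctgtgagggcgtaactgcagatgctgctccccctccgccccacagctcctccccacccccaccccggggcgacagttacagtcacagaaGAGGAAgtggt
The Sh3kbp1 sequence is 76.4% G and C and holds none of the 4 motifs searched, and the Vav1 sequence is 60.8% G and C and holds the PU.1 letters 11 bases before the start. PU.1 core letters occurred in 23.3% of all 32851 promoters. Over the 15 RefSeq promoters of 9 members, 5 promoters of 4 genes (Grb2, Sh3kbp1 at other starts, Syk and Vav1) held them. The interferon-response letters TTTCNNTTTC, found in 2.98% of all promoters, and the STAT-site letters TTCNNNGAA, found in 7.02%, were in 0 of the 15. Counts per gene do not tell which of the 4 Sh3kbp1 starts was used.

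The knockouts were also compared with each other rather than with WT. Between DKO and Cbl-/-, 2 passed, Met higher and Csf1r lower in DKO, where 29.6% of all tested genes passed. Between DKO and the libraries labelled Cbl-b-/-, 4 passed, Met, Syk and Sh3kbp1 higher and Csf1r lower in DKO, where 33.2% of all genes did. Without DKO 3 the count against Cbl-/- was 6, with Syk and Grb2 added as higher and Crk and Cd2ap as lower, and against the libraries labelled Cbl-b-/- it was also 6. All genes called without DKO 3 were 4332 against Cbl-/- and 4543 against Cbl-b-/-, with 3747 and 4211 from all libraries. These comparisons and those with WT share libraries, so their values are given side by side only.

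Of 33 genes that signal downstream of the CSF-1 receptor and Met, 0 passed in Cbl-/- and 0 in libraries labelled Cbl-b-/-, while in DKO 5 were higher and 13 lower, where 19.1% of all tested genes were higher and 16.3% lower. Higher were Ptpn6, Pik3cb, Rac2, Nras and Hras, among them the Rac gene of blood cells, Rac2, with 327 ± 30.1 CPM in DKO and 240 ± 10.6 CPM in WT (SD, n = 3 each, log2 0.44, adjusted p = 4.69e-05). The lower genes included the docking proteins Gab1 and Gab2, the lipid phosphatase gene Inpp5d, Plcg1, the Rac activators Dock1 and Elmo1, and Map2k1 and Mapk3 of the MAP kinase cascade. The median over the 33 genes was -0.09 log2 in DKO and -0.03 in Cbl-/-, with -0.00294 and -0.00645 over all tested genes. Without DKO 3 the counts were 9 higher and 11 lower.

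Of 23 other tested genes whose proteins bind or regulate Cbl, 3 were higher in Cbl-/- and 0 lower, and 4 were higher and 7 lower in DKO. Over all tested genes the shares were 5.68% higher and 4.19% lower in Cbl-/-, and 19.1% and 16.3% in DKO. Ubash3b, the phosphatase Sts-1 that binds Cbl and acts on Syk-family kinases, had 131 ± 8.67 CPM in Cbl-/- and 103 ± 1.75 CPM in DKO, against 99.7 ± 6.2 CPM in WT (SD, n = 3 each), and was called higher in Cbl-/- (0.39 log2, adjusted p = 0.000278). Ubash3b shares chromosome 9 with the targeted gene, at 41011098 to 41161697, and Cbl lies at 44142976 to 44234049. The part of this position in its level was not tested. Sla, the Src-like adaptor that works with Cbl in receptor turnover in lymphocytes, was higher in both Cbl-/- (0.36, adjusted p = 0.00315) and DKO (0.59, adjusted p = 6.44e-06), and Lcp2 (SLP-76) was higher in Cbl-/- (0.24, adjusted p = 0.0371). The adaptor gene Sh2b3 (Lnk) fell by 0.64 log2 in DKO (adjusted p = 3.33e-06), and Sorbs3, of low level, by 1.97 (adjusted p = 2.36e-05). The Sprouty genes Spry1 and Spry2 were also lower in DKO. The list's median was -0.04 log2 in Cbl-/- and 0.00376 in DKO.

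Among 14 tested ligands and other receptor tyrosine kinases, 3 were higher and 2 lower in Cbl-/-, and 4 higher and 5 lower in DKO. All tested genes were 5.68% higher and 4.19% lower in Cbl-/-, and 19.1% higher and 16.3% lower in DKO. Flt1, a VEGF receptor found on monocytes, had 51.5 ± 1.09 CPM in Cbl-/- and 17.1 ± 2.91 CPM in DKO, against 18.6 ± 0.909 CPM in WT (SD, n = 3 each), and passed in Cbl-/- (1.47 log2, adjusted p = 1.87e-07). Epha2 was higher in Cbl-/- (0.47, adjusted p = 0.00802) and lower in DKO (-0.75, adjusted p = 4.67e-05). Fgfr1 was higher in DKO (1.36, adjusted p = 1.72e-06). Gas6, the ligand of the clearance receptors Mertk and Axl, was lower in both Cbl-/- (-0.47, adjusted p = 0.00925) and DKO (-1.72, adjusted p = 1.37e-08), and Mertk was called lower with it. The list's median was 0.18 log2 in Cbl-/- and -0.18 in DKO. Without DKO 3, 6 were higher and 5 lower in DKO. A further 10 tested genes were related to the members by sequence or by role: Grap, Grap2, Vav2, Vav3, Pik3r2, Pik3r3, Pik3r5, Pik3r6, Nck1 and Nck2. Of them 2 were higher in Cbl-/-, and 5 were higher and 1 lower in DKO. Their median was 0.00503 log2 in Cbl-/- and 0.22 in DKO. The counts are to be read against the same shares of all genes.

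**Figure D5:**
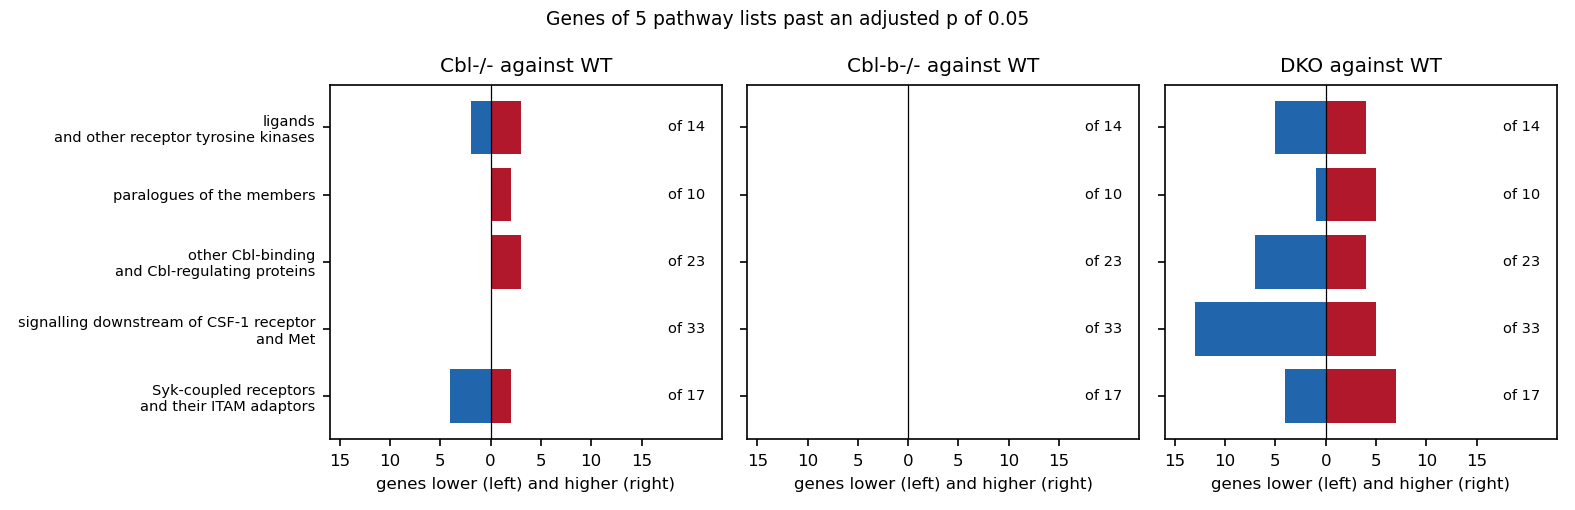
Number of genes (x axis) of 5 pathway lists (y axis, with the number tested at the right) that were higher (red) or lower (blue) than WT at an adjusted p of 0.05, in Cbl-/-, Cbl-b-/- and DKO. None passed in Cbl-b-/-, and the downstream list had 0 calls in Cbl-/- and 18 in DKO.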

How the data were processed

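RNA from 12 macrophage libraries, 3 per genotype, was sequenced after a stranded mRNA library kit, per the labels' protocols. The authors deposited raw read counts over the exons of each gene, not normalized. The build GRCm38.p5 is named per the submitters' processing notes, while no aligner, counter or strand setting is named there or in the labels. All 12 value columns were matched to samples by genotype and number, and 0 columns belonged to other samples. Every gene of the table has at least 1 count in the library WT 1, so genes silent there were not analysed here. Total counts per library, which set the precision, were 21048103 to 43946503.

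Counts were tested with edgeR 4.0.16 (R 4.3.3): filterByExpr left 12671 of 15555 genes, TMM factors scaled the libraries, and robust quasi-likelihood F tests compared genotypes in a fit of all 12 libraries. Adjusted p-values are Benjamini-Hochberg values over all tested genes, two-sided, with a threshold of 0.05, and the 95% intervals are unadjusted. Non-additivity is the DKO difference from WT minus the sum of the single-knockout differences. CPM and RPKM use TMM-scaled counts and exon lengths from GENCODE for GRCm38. The scripts were tested on simulated data. Alternatives were DESeq2 1.42.0 (size factors, and its own test), total counts, no filter, a filter of 5 CPM in 3 libraries, limma 3.58.1 voom without and with a weight per genotype, the compared genotypes alone, a replicate block, and each library left out in turn.

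The genes and pathway lists were chosen with earlier results of these data known. Named beside the 10 genes are up to 3 called genes per list and comparison with WT by smallest adjusted p. Also named are the relatives of the members by sequence or role, the ligands, and the 5 genes most correlated with Csf1r and with Met in log2 CPM. Other genes named as called, the neighbours of Met and the count of lists without DKO 3 or Cbl-b-/- 3 were chosen after the values were seen. Promoter sequences are RefSeq's (GRCm38.p6), matched by symbol for 9 of 10 genes.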

Additional observations from a re-analysis of the deposited data

Results flagged for a closer look

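Csf1r and Met differed in libraries labelled DKO from the sum of what they did in Cbl-/- and in libraries labelled Cbl-b-/-. For Csf1r the departure was -0.4165 log2 (SE 0.0829, edgeR adjusted p = 0.00247), and for Met it was 1.79 log2 (SE 0.205, edgeR adjusted p = 1.8e-05). Both kept the call in each of the 20 alternatives run for this test.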

How the results depend on the processing

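Of the 15 calls made on the 10 genes, 234 of 235 retests under the alternatives kept the call. The exception was Sh3kbp1 in Cbl-/- against WT, at 0.1941 log2 without WT 3 (adjusted p = 0.0524). Over all 1100 retests of the 10 genes, 38 changed sign, none of them of a called value. With total counts in place of TMM factors the median of all genes shifted by -0.11 log2 for non-additivity and by -0.0702 in DKO against WT, where 1773 genes were then higher and 2873 lower, against 2423 and 2062 with TMM. The split was 1362 higher and 2747 lower for DKO against Cbl-/-, 1543 and 3207 for DKO against Cbl-b-/-, and 711 and 1719 for non-additivity. Under total counts the signs that turned were those of Csf1r (0.009115) and Pik3r1 (0.007081) in Cbl-/-, Pik3r1 in Cbl-b-/- (0.01355), and Grb2 (-0.04315), Pik3r1 (-0.03767) and Vav1 (-0.009026) in DKO against WT. Against Cbl-/-, those of DKO were Pik3r1 (-0.04475) and Vav1 (-0.04046), and against Cbl-b-/- they were Grb2 (-0.02632), Pik3r1 (-0.05122) and Vav1 (-0.0532). For non-additivity they were Sh3kbp1 (-0.06621), Pik3r1 (-0.0583) and Vav1 (-0.08463). With no filter Crk in Cbl-b-/- against WT was -0.0004475.

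With each library left out in turn, log2 values changed sign within these ranges: -0.06217 to 0.01998 for Csf1r in Cbl-/- against WT, -0.005123 to 0.1007 for Cd2ap in Cbl-/- against WT, -0.04604 to 0.02797 for Pik3r1 in Cbl-/- against WT and -0.01547 to 0.02104 for Crk in Cbl-b-/- against WT. They were -0.05474 to 0.02118 for Pik3r1 in Cbl-b-/- against WT, -0.02035 to 0.06733 for Grb2 in DKO against WT, -0.2038 to 0.03032 for Cd2ap in DKO against WT and -0.1234 to 0.01233 for Crkl for non-additivity. Also found were -0.2294 to 0.007933 for Cd2ap for non-additivity, -0.03542 to 0.01469 for Crkl in Cbl-b-/- against Cbl-/-, -0.04549 to 0.03709 for Pik3r1 in Cbl-b-/- against Cbl-/- and -0.013 to 0.02749 for Vav1 in Cbl-b-/- against Cbl-/-. The last was -0.1732 to 0.06241 for Cd2ap in DKO against Cbl-b-/-. The number of the 10 genes called ranged from 1 to 2 in Cbl-/- against WT, from 2 to 6 in DKO against Cbl-/- and from 2 to 5 for non-additivity, where the counts of 6 and 5 were those without DKO 3. All genes called ranged from 733 to 978 in Cbl-/- against WT (1251 with all libraries), from 35 to 75 in Cbl-b-/- against WT (62) and from 533 to 737 in Cbl-b-/- against Cbl-/- (934), with 1 fewer library in each fit. The number of the 10 genes called in DKO against Cbl-/- was 4 with total counts and 5 with DESeq2, against 2. With total counts it was 6 in DKO against WT and 6 in DKO against Cbl-b-/-, against 4 in each, Crk and Crkl being added as lower. In Cbl-b-/- against Cbl-/- it was 2 with DESeq2, with a weight per genotype and with those genotypes alone, against 1. In Cbl-/- against WT it was 4 with a weight per genotype and 4 alone, Syk and Grb2 being added. All genes called in Cbl-/- against WT were 2917 with a weight per genotype and 2753 alone. In Cbl-b-/- against WT they were 145 with DESeq2 and 112 with a weight per genotype. In Cbl-b-/- against Cbl-/- they were 1685 with a weight per genotype and 1712 alone, and in DKO against Cbl-b-/- 2760 alone, against 4211. The cause of these differences was not tested.

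The replicate numbers did not pair the samples: deviations of same-numbered libraries correlated at -0.054 to 0.0519 over 18 pairs. With a replicate block, 2 of the 10 genes passed in Cbl-/- against WT, 0 in Cbl-b-/-, 4 in DKO, and 3 in DKO against Cbl-/-, Syk being added at 0.152 log2 (adjusted p = 0.0452). Met, at 59 to 70 reads in the libraries labelled Cbl-b-/-, is the gene whose precision depth limits most.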
